A study of Mus musculus with 4 samples.

Results

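The genes of the proteasome were examined in mouse soleus, a slow-twitch calf muscle, on 4 arrays of wildtype and HSL-null RNA. Members were all genes whose symbol starts with Psma, Psmb, Psmc, Psmd or Psme and that a probe set names alone, each represented by its probe set with the highest mean over the 4 arrays. This rule used no difference between genotypes and gave 42 genes of the 8251 genes named on the array. They comprise 7 alpha subunits and 7 constitutive beta subunits of the 20S core, 3 immunoproteasome beta subunits, 6 ATPases, 3 other subunits of the 19S base, 8 subunits of the 19S lid and 3 activators. The other 5 are no subunits of the finished particle: Psmd5, Psmd9 and Psmd10 encode chaperones that help to build the 19S base, and Psmc3ip and Psme3ip1 are named for proteins that bind a subunit. Each genotype was represented by 1 pool of soleus muscle from 5 female mice aged 6 months, hybridised to 2 arrays as technical duplicates. HSL is hormone-sensitive lipase, the enzyme that releases fatty acids from stored acylglycerols, and HSL-null mice lack it. The comparison asks how muscle transcripts differ without this lipase. The strain, the allele and the housing were not given in the sources used here. With 1 pool per genotype there is no test across animals, no p-value was computed, and all errors below are those of duplicate arrays.

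The proteasome degrades proteins that carry ubiquitin chains. Its 20S core is a barrel of outer alpha rings, which gate the entrance, and inner beta rings, which hold the proteolytic sites. The 19S particle caps the core, and its lid removes ubiquitin. The base of the particle holds ubiquitin receptors and an ATPase ring, which unfolds the protein and feeds it into the barrel. Activators of the PA28 and PA200 families can take the place of the 19S cap, and interferon-inducible beta subunits can replace the catalytic ones to form the immunoproteasome, which serves antigen presentation. In skeletal muscle this pathway carries out much of the breakdown of myofibrillar protein, and its genes are known to rise together in several kinds of muscle wasting.

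Lipe, the gene of the missing lipase, measured 71.4 and 70.2 in wildtype and 16.2 and 19.4 in HSL-null, a difference of -2.00 ± 0.13 on the log2 scale (SE from duplicates), which follows the labels. All 9 skeletal muscle markers examined had means over the 4 arrays of 1317 to 5964. All 9 lay above 0 in HSL-null, 3 of them without overlap, with a median of 0.044 as deposited. With median centring 6 of 9 lay above 0, 0 of them without overlap, and the median was 0.0080. The part of this shift in the proteasome values was not tested. Of the 42 members, 38 reached a mean of 27.7, the median level of the array's probe sets, and their means ran from 38.1 to 1273 in arbitrary units of array intensity. The members below this filter were Psmb9, Psmc4, Psmd2 and Psmc3ip. RNA quality was read from control probe sets: for beta-actin, 3′ over 5′ signal averaged 0.697 ± 0.0126 for wildtype (SD, n = 2 arrays) and 0.819 ± 0.00532 for HSL-null. For Gapdh the same ratio averaged 0.941 ± 0.0203 and 0.917 ± 0.00716. The part of these differences in the results below was not tested. For 7 members the probe set carries an added suffix (Psma3, Psmb4, Psmb5, Psmb7, Psmc3, Psmd9 and Psmd12), and their values are uncertain to that extent. For all of them except Psmd9 it marks probes able to match related sequences. Psmd9 has the suffix _r, which is of another kind. The probe sets of Sem1 and Psmg3, read further below, carry _r too, and their values are likewise uncertain.

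Differences between the pools were small throughout the proteasome, mostly of one sign in the 19S particle and of both signs in the 20S core. Of the 15 subunits of the 19S particle above the filter, 14 lay below 0 in HSL-null, beside 51.2% of all genes. Of the 15, 12 were lower on both HSL-null arrays than on either wildtype array, led by the ATPase gene Psmc5 at 1.25-fold lower. Of the 14 constitutive subunits of the 20S core, 4 were higher and 2 lower on both arrays, and 8 overlapped. Among the 38 members the arrays of the genotypes did not overlap for 22, of which 6 were higher and 16 lower in HSL-null. As shares of the 38 these are 15.8% and 42.1%, beside 19.7% higher and 21.5% lower among all 4851 genes above the filter, and 20% (508) and 24.2% (616) among the 2542 genes at or above the 75th percentile of level. The members lay higher in level than most genes and their duplicates were closer, with a median SE of 0.048 beside 0.096 over all genes and 0.070 over those above the 75th percentile. With each array centred on its median, an alternative scaling, the members split into 4 higher and 17 lower and all genes into 13.4% higher and 28.4% lower. The median log2 difference over the 38 members was -0.030 (HSL-null minus wildtype), beside -0.0041 over all genes.

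No member was separated by 1.5-fold on all 4 comparisons of single arrays across genotypes (0 of 38, beside 0.454% of all genes). At 1.2-fold the single member was Psmd5, lower in HSL-null, beside 3.67% of all genes. All are bulk values of whole muscle, in which fewer cells of a type and less RNA per cell cannot be told apart.

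**Figure D1:**
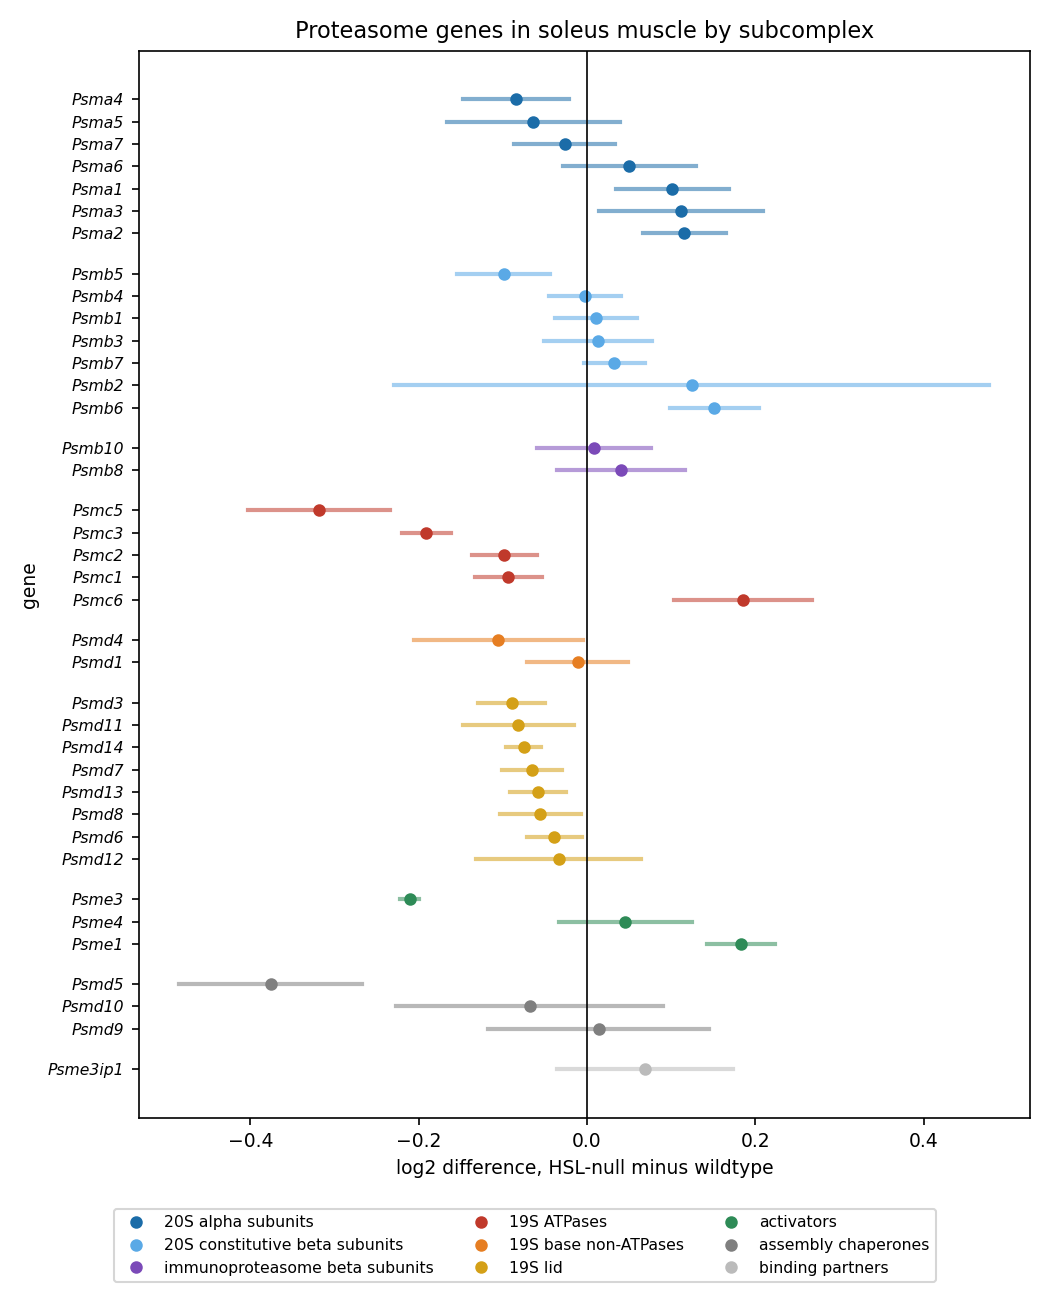
Log2 difference between HSL-null and wildtype (x axis) for each of the 38 members above the filter (y axis), grouped and coloured by subcomplex. Points are the difference of the means of 2 arrays per genotype, and bars run from the lowest to the highest of the 4 differences between single arrays. The 8 lid genes all lie left of 0, while the core subunits lie on both sides.

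The plot of directions by subcomplex sets these counts beside those of all genes. Of the lid genes 7 of 8 were lower on both arrays, and of the ATPase genes 4 of 5, while 3 of 7 alpha subunit genes were higher. The difference in counts between subcomplexes was not tested.

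**Figure D2:**
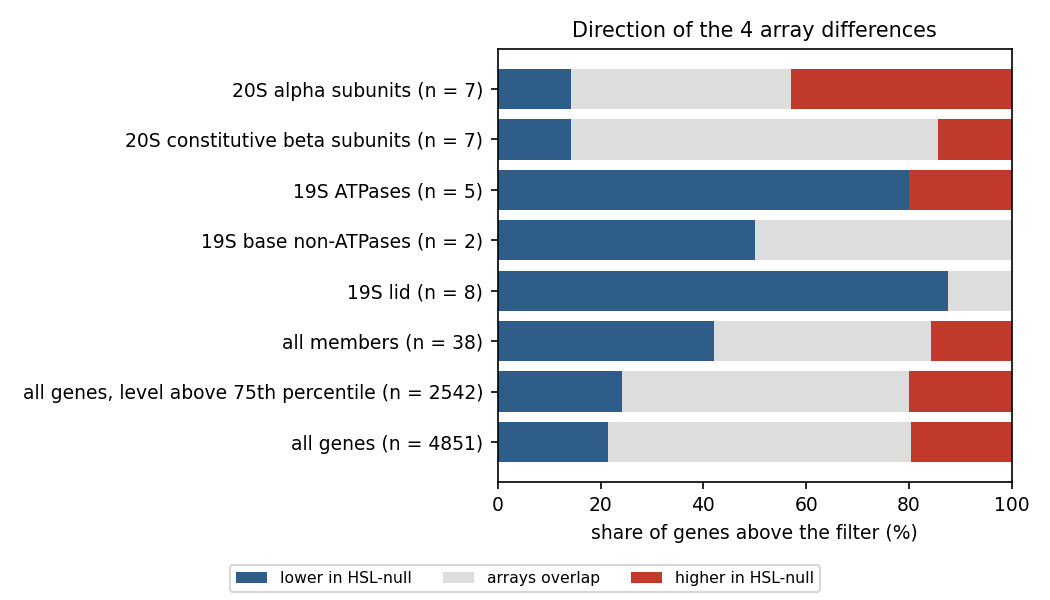
Share of genes above the filter (x axis, percent) whose 2 HSL-null arrays both lie below (blue), both lie above (red) or overlap (grey) the 2 wildtype arrays, for 5 subcomplexes, all members, the genes above the 75th percentile of level and all genes (y axis, number of genes in brackets). Blue takes 87.5% of the lid and 80.0% of the ATPases, against 21.5% of all genes.

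The alpha subunits form the outer rings and the gate of the core. Their median log2 difference was 0.050, with 3 of 7 genes higher, 1 lower and 3 overlapping. Psma2 measured 867 and 896 in wildtype and 972 and 939 in HSL-null (a difference of 0.12 ± 0.035 on the log2 scale, SE from duplicates). Psma1 measured 135 and 129 in wildtype and 139 and 145 in HSL-null, a difference of 0.10 ± 0.047. Both genes lay above wildtype on each HSL-null array, by 1.08-fold and 1.07-fold. Psma3 measured 1128 and 1251 in wildtype and 1304 and 1263 in HSL-null. Its wildtype arrays lay far apart, its difference was 0.11 ± 0.078, and the lower HSL-null array exceeded the higher wildtype array by only 0.014 on the log2 scale. Psma4 went the other way, with 521 and 525 in wildtype and 513 and 474 in HSL-null (-0.085 ± 0.058). The overlapping members were Psma5 at -0.064 ± 0.085, Psma6 at 0.050 ± 0.068 and Psma7 at -0.026 ± 0.048. Alpha subunit genes thus lay on both sides of 0. With median centring 1 alpha subunit gene, Psma1, stayed higher without overlap, and the median was 0.014.

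The constitutive beta subunits include the 3 catalytic ones, and these lay on different sides of 0. Psmb5, which carries the chymotrypsin-like site, measured 937 and 982 in wildtype and 883 and 909 in HSL-null and was lower on both HSL-null arrays (-0.099 ± 0.040). Psmb6, with the caspase-like site, measured 604 and 639.7 in wildtype and 685 and 696 in HSL-null and was higher on both (0.15 ± 0.043, 1.11-fold). Psmb7, with the trypsin-like site, measured 802 and 826 in wildtype and 841 and 824 in HSL-null and overlapped (0.033 ± 0.026). The members without a catalytic role all overlapped: Psmb1 at 0.011 ± 0.035, Psmb3 at 0.013 ± 0.049, Psmb4 at -0.0024 ± 0.032 and Psmb2 at 0.12 ± 0.25. Psmb2 had the widest duplicates of the core, with 464 and 612 in wildtype and 647 and 522 in HSL-null. The median over the 7 genes was 0.013, with 1 gene higher and 1 lower, and it lay below 0 with median centring (-0.023) and without the first array of either genotype (-0.0069 without that of wildtype and -0.017 without that of HSL-null).

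Because Psmb5 and Psmb6 differed in opposite directions, the 250 bases before their RefSeq start sites (GRCm38.p6) are shown, 5′ to 3′ on the gene's strand. Capitals mark matches to any of 5 motifs searched on both strands. They are CCAAT, the box bound by NF-Y, the short and long sites TGACNNNGC and GCTGAGTCA of CNC-bZIP factors such as NRF1 (Nfe2l1), which is known to drive proteasome genes, the STAT site TTCNNNGAA, and an interferon response motif of TTTC, 2 bases of any kind and TTTC. Each match to the long CNC-bZIP site is also a match to the short one on the other strand.
Psmb5, chr14:54617996-54618245, minus strand: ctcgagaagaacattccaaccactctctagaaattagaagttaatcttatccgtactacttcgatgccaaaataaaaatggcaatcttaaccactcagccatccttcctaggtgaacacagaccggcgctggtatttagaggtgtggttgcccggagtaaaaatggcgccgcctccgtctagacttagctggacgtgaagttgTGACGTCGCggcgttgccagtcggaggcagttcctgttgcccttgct
Psmb6, chr11:70525107-70525356, plus strand: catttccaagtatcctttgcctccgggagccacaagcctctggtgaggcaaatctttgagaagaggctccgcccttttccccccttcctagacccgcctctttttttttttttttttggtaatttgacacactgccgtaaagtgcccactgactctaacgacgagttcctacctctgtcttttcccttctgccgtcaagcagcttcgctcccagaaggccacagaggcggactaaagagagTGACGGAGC
Each window holds 1 match, to the short CNC-bZIP site, from 47 to 39 bases before the start of Psmb5 and from 9 to 1 bases before that of Psmb6. The RefSeq table had promoters for 36 of the 42 members, in 39 windows, and lists none for Psmb1, Psmb2, Psmb7, Psmc3, Psmd3 and Psmd7. The short CNC-bZIP site was present in 5 of the 39 windows (12.8%, beside 10.2% of all 32851 promoter windows), those of Psmb5, Psmb6, Psmc6, Psmd9 and Psmd12, whose genes lay on both sides of 0. CCAAT was present in 15 (38.5%, beside 33.8%), the STAT site in 1 (2.56%, beside 7.02%) and the interferon response motif in 3 (7.69%, beside 2.98%). The long site was in 0 of 39 and in 0.390% of all windows. A match describes letters only.

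Of the 3 immunoproteasome subunits, the 2 above the filter overlapped between the genotypes. Psmb8, the interferon-inducible counterpart of Psmb5, measured 66.7 and 73.6 in wildtype and 71.8 and 72.3 in HSL-null (0.040 ± 0.071), and both HSL-null arrays fell between the wildtype arrays. Psmb10, the counterpart of Psmb7, measured 126 and 120.3 in wildtype and 121 and 127 in HSL-null (0.0081 ± 0.048) and also overlapped. Psmb9, the counterpart of Psmb6, lay below the filter with 25.6 and 18.1 in wildtype and 33.3 and 28.7 in HSL-null. Its HSL-null arrays were both higher, at a difference of 0.52 ± 0.27 with widely spaced wildtype duplicates. Set against the subunit it replaces, the log2 difference was larger by 0.14 ± 0.082 for Psmb8 over Psmb5 and by 0.37 ± 0.28 for Psmb9 over Psmb6, and differed by -0.025 ± 0.055 for Psmb10 over Psmb7. The value for Psmb9 and Psmb6 was -0.0033 with the floor raised to the 50th percentile, which exceeds both wildtype values of Psmb9. The value for Psmb8 and Psmb5 was 0.085 with all probe sets of a gene averaged.

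The promoter of Psmb8 is shown as the single window among the members with a STAT site, which lies 97 to 89 bases before the start and is in capitals.
Psmb8, chr17:34197945-34198194, plus strand: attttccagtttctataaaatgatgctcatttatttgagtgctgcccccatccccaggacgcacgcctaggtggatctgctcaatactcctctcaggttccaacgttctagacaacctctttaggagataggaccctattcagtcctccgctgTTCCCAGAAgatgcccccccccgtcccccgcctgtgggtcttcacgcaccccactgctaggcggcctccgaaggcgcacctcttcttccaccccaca
The arrays of this gene overlapped, as given above.

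**Figure D3:**
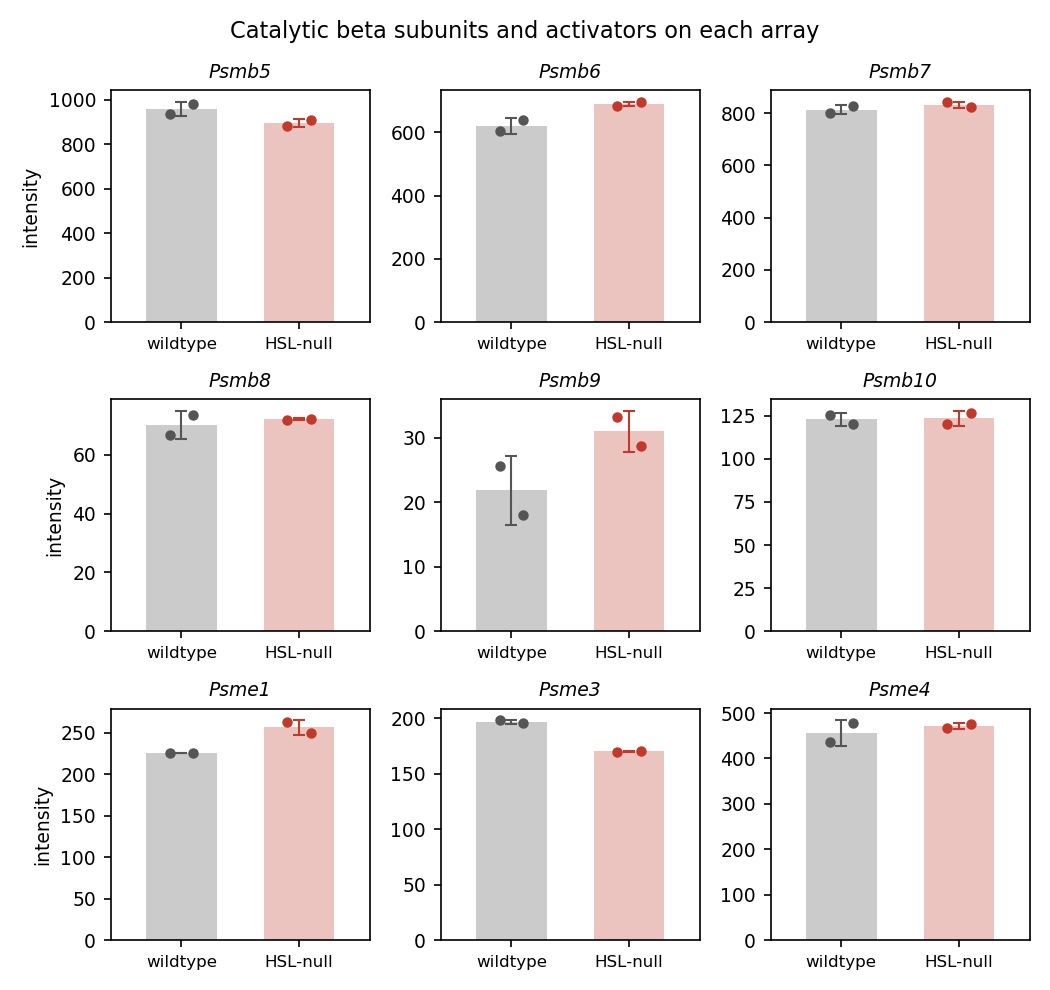
Intensity (y axis, from 0) of the catalytic beta subunits, their immunoproteasome counterparts and 3 activators in wildtype (grey) and HSL-null (red). Points are single arrays, bars the mean of 2 arrays and error bars the SD. The points of Psmb6, Psmb9 and Psme1 lie higher in HSL-null and those of Psmb5 and Psme3 lower, while Psmb7, Psmb8, Psmb10 and Psme4 overlap.

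Of the 5 ATPase genes above the filter, 4 were lower on both HSL-null arrays and 1 was higher. Psmc5 measured 325 and 307 in wildtype and 246 and 261 in HSL-null, 1.25-fold lower in HSL-null (-0.32 ± 0.060). Psmc3, whose product also contacts ubiquitin chains, measured 605 and 616 in wildtype and 541 and 529 in HSL-null, 1.14-fold lower (-0.19 ± 0.021). For both genes the gap between the genotypes exceeded the gap between duplicates. Psmc2 measured 897 and 929 in wildtype and 861 and 845 in HSL-null (-0.098 ± 0.029) and Psmc1, whose tail helps to open the gate of the core, 432 and 415 in wildtype and 394 and 399.8 in HSL-null (-0.093 ± 0.031). Psmc6 was the exception, with 1059 and 958 in wildtype and 1138 and 1153 in HSL-null, 1.14-fold higher (0.19 ± 0.073). The median of the 5 genes was -0.098 (-0.13 with median centring). The sixth, Psmc4, lay below the filter with 15.2 and 12.4 in wildtype and 12.2 and 11.4 in HSL-null, lower on both HSL-null arrays but close to the floor of 5.7. The products of all 6 genes form a single ring. Each of the 5 above the filter kept its direction without overlap under all 14 alternatives of processing. Only median centring, quantile and loess normalization and the averaging of probe sets could have made arrays overlap. The common trimmed mean, leaving out an array, the replicate block, the floors and the filters could not do so for genes of this level. The common trimmed mean hardly changes the values, since each array already had a trimmed mean of 100.08.

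The promoters of Psmc5 and Psmc6, the lowest and the highest of the ATPase genes, are given for comparison.
Psmc5, chr11:106255935-106256184, plus strand: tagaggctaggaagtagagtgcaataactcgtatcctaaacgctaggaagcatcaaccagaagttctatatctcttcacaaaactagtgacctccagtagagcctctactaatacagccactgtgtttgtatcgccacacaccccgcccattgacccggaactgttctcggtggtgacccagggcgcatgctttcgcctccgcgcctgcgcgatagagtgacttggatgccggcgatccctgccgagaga
Psmc6, chr14:45329574-45329823, plus strand: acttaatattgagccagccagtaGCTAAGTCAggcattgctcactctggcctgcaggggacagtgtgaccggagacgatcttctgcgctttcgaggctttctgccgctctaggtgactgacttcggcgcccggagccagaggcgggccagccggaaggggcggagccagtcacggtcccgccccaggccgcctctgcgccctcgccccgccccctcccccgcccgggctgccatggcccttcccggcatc
The Psmc5 window holds 0 matches to the motifs, and the Psmc6 window holds 1, a short CNC-bZIP site on the opposite strand, from 227 to 219 bases before the start. The GC content was 53.2% for Psmc5 and 68.0% for Psmc6.

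The remaining base subunits are scaffolds and ubiquitin receptors. Psmd4, a ubiquitin receptor, measured 866 and 911 in wildtype and 863 and 790.2 in HSL-null and was lower on both HSL-null arrays (-0.11 ± 0.073), the array pair nearest to each other differing by -0.0050 on the log2 scale. Psmd1, a large scaffold subunit, measured 574 and 615 in wildtype and 594 and 586 in HSL-null and overlapped (-0.011 ± 0.051). Psmd2, the other scaffold, gave 4.6 and 3.9 in wildtype and 3.3 and 2.9 in HSL-null, all under the floor, so that no difference is given.

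All 8 lid genes lay below 0, beside 51.2% of all genes, and 7 of 8 were lower on both HSL-null arrays, by at most 1.06-fold. Psmd14, the metalloprotease that cuts ubiquitin chains off the substrate, measured 315 and 318 in wildtype and 304 and 297 in HSL-null (-0.075 ± 0.016). Psmd7, its inactive partner, measured 1032 and 1029 in wildtype and 962 and 1008 in HSL-null (-0.065 ± 0.034). The groups were apart in both genes. Psmd3 measured 354 and 365 in wildtype and 342 and 333 in HSL-null (-0.089 ± 0.028) and Psmd11, a structural subunit at the contact with the core, 1049.5 and 1118 in wildtype and 1009.8 and 1038 in HSL-null (-0.081 ± 0.050). Psmd13 measured 280.4 and 284 in wildtype and 276 and 267 in HSL-null (-0.058 ± 0.026), Psmd8 205 and 193 in wildtype and 191 and 192 in HSL-null (-0.055 ± 0.045) and Psmd6 1070.4 and 1110.1 in wildtype and 1066 and 1057 in HSL-null (-0.039 ± 0.027). For Psmd8 and Psmd6 the closest arrays of the genotypes differed by only -0.0075 and -0.0062 on the log2 scale. Psmd12 overlapped, with 368 and 339 in wildtype and 336 and 354 in HSL-null (-0.033 ± 0.071). The median of the 8 genes was -0.062, and the medians relative to the wildtype mean were -0.0077 and 0.0077 for wildtype and -0.066 and -0.057 for HSL-null. All 8 lay below 0 under each of the 4 other scalings. Lower without overlap were 8 with median centring, beside 28.4% of all genes, and 7 with the common trimmed mean, beside 21.7%. With quantile and loess normalization 6 were, beside 21.0% and 20.7% of all genes. With the probe sets of a gene averaged, 7 of 8 lay below 0, the exception being Psmd11 at 0.033. The dimmest probe set of Psmd11 above the filter, with a mean of 30.8 and the suffix _r, lay at 0.24 ± 0.24. The brighter ones lay below 0. Sem1, the small lid subunit, does not carry a Psm symbol and was 0.050 ± 0.030, higher on both HSL-null arrays.

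The promoter of Psmd14 is shown for the lid, whose 8 members, unlike Sem1, lay below 0 at their brightest probe set.
Psmd14, chr2:61711444-61711693, plus strand: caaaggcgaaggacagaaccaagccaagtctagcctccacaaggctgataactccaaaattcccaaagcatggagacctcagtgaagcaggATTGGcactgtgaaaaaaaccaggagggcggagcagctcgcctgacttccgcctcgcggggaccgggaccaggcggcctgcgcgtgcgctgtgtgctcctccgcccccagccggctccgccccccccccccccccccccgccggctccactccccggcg
It holds 1 match, CCAAT on the opposite strand from 159 to 155 bases before the start. Of the 15 windows of 19S genes, 4 held CCAAT (26.7%), and of the 12 windows of constitutive core genes 6 did (50%), beside 33.8% of all promoters.

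Read together, the median of the 15 genes of the 19S particle was -0.075 and that of the 14 constitutive core genes 0.023. Relative to the wildtype mean, the 19S median was -0.0095 and 0.0095 for wildtype and -0.072 and -0.082 for HSL-null, so that the groups did not overlap. The core median was -0.023 and 0.023 for wildtype and 0.052 and -0.014 for HSL-null, which overlapped. The 19S median lay below the core median by 0.098 on the log2 scale with the values as deposited. Median centring, the common trimmed mean, the floors, the filters and the replicate block left this difference unchanged. A shift of a whole array cancels in it, and floors, filters and block leave values of this level as they are. The other alternatives gave 0.068 to 0.12. The count of core genes above 0 depended on the scaling, with 9 of 14 as deposited and 6 of 14 with median centring. That of 19S genes below 0 was 14 of 15 with each scaling, and 13 or 14 of 15 without single arrays. As deposited, 51.2% of all genes lay below 0, and 52.5% of those at or above the 75th percentile of level. With median centring the median of all genes itself fell to -0.040. The plot of difference against level shows that the 2 sets cover a similar range of intensities, 195 to 1077 for the 19S particle and 137 to 1273 for the core.

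**Figure D4:**
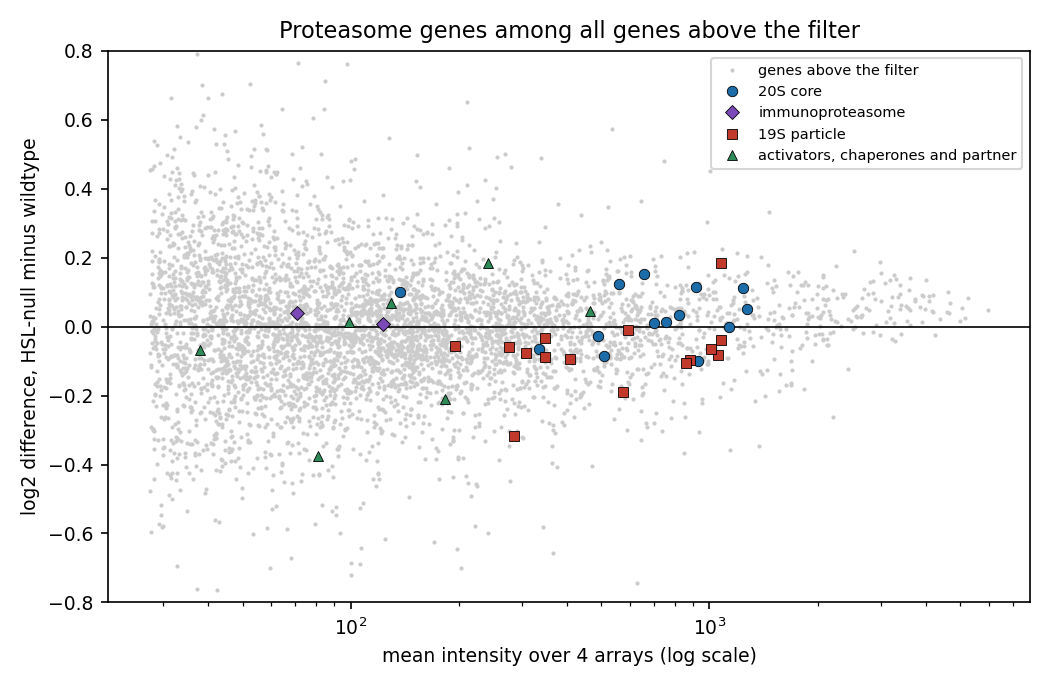
Log2 difference between HSL-null and wildtype (y axis) against the mean intensity over 4 arrays (x axis, log scale) for 4851 genes above the filter (grey) and the 38 members (coloured). Of all genes 35 lie outside the y axis. Red squares of the 19S particle lie below 0 except Psmc6, and blue circles of the core lie on both sides.

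The activators differed among themselves. Psme1, the alpha subunit of the interferon-inducible PA28 ring, measured 226 and 225 in wildtype and 263 and 249.7 in HSL-null, 1.14-fold higher in HSL-null (0.18 ± 0.038). Psme3, which forms the nuclear PA28 ring on its own, measured 198 and 196 in wildtype and 170.1 and 170.3 in HSL-null, 1.16-fold lower (-0.21 ± 0.011). The duplicates of both genes were close and the groups were apart, in opposite directions. Psme4, which encodes PA200, measured 436 and 477 in wildtype and 466 and 475 in HSL-null and overlapped (0.046 ± 0.067). Psme2, the partner of Psme1 in the PA28 ring, is no member, because its probe sets are also assigned to Psme2b. The brighter of its probe sets measured 135 and 123 in wildtype and 125 and 131 in HSL-null (-0.013 ± 0.075) and overlapped.

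The windows before Psme1 and Psme3 are shown because these activators lay on opposite sides of 0 without overlap.
Psme1, chr14:55578244-55578493, plus strand: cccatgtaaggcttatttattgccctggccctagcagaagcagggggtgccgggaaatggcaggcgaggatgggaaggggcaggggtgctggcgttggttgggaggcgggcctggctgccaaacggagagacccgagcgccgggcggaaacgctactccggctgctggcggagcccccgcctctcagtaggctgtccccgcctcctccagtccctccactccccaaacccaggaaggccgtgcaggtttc
Psme3, chr11:101315963-101316212, plus strand: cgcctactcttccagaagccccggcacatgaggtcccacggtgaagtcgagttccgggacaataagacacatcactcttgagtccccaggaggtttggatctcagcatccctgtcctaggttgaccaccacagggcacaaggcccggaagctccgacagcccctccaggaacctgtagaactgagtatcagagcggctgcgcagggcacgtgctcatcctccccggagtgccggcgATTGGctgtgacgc
Psme1 has 0 matches, and Psme3 has 1, CCAAT on the opposite strand from 14 to 10 bases before the start.

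Among the chaperones of the base, Psmd5 had the largest difference of all 38 members. It measured 92.6 and 90.4 in wildtype and 66.2 and 75.1 in HSL-null, 1.30-fold lower in HSL-null (-0.38 ± 0.093). Psmd9 measured 93.9 and 103 in wildtype and 104 and 94.7 in HSL-null (0.014 ± 0.092) and Psmd10 42.7 and 35.5 in wildtype and 36.5 and 37.8 in HSL-null (-0.068 ± 0.14), and both overlapped. Psme3ip1 overlapped too, with 129.6 and 123 in wildtype and 126 and 139 in HSL-null (0.068 ± 0.077). Psmc3ip, which acts in meiotic recombination and is no proteasome gene, gave 2.9 and 3.0 in wildtype and 7.3 and 6.6 in HSL-null, around the floor, so that no fold is given.

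Several members were measured by more than 1 probe set, which gives a second reading of the same pools. This was the case for 7 genes, with 11 further probe sets, of which 6 passed the filter. Of these 6, 3 had the sign of the brighter probe set. Psmc3 was lower on all 3 of its probe sets, at -0.19 ± 0.021, -0.11 ± 0.039 and -0.13 ± 0.087, without overlap on any. All 3 carry an added suffix (_f, _i and _f in this order), so that these readings are uncertain to that extent. The further probe sets of Psmd11 overlapped, at -0.058 ± 0.088 and 0.24 ± 0.24, while the brighter one did not. The further probe set of Psmb5 overlapped at 0.010 ± 0.095 and that of Psmb1 at -0.089 ± 0.078. The other 5 were below the filter, among them the further probe sets of Psmc5 and Psme1, so that the values of these genes rest on 1 probe set.

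Factors that build the proteasome or work beside it were counted from a list of 16 genes, of which 13 were named on the array and all 13 passed the filter. Without the 3 that are members, 6 of 10 were higher and 1 lower on both HSL-null arrays (4 and 2 with median centring), and the median was 0.080. The shares of all genes were 19.7% higher and 21.5% lower, and 13.4% and 28.4% with median centring. Pomp, the chaperone that matures the core, measured 506 and 452 in wildtype and 560.1 and 556 in HSL-null (0.22 ± 0.081). The core assembly chaperone Psmg4 had the highest difference, 0.31 ± 0.13, with Psmg2 at 0.19 ± 0.032, Psmg3 at 0.025 ± 0.014 and Psmg1 overlapping at 0.11 ± 0.13. The proteasome-bound deubiquitinases went opposite ways, Uchl5 at 0.27 ± 0.13 and Usp14 at -0.20 ± 0.094, the latter being the lowest of the list besides Psmd5.

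Of 12 shuttle factors and cofactors of the ATPase p97, 7 were named and passed, of which 0 were higher and 4 lower on both HSL-null arrays (1 and 3 with quantile normalization or loess), beside 19.7% and 21.5% of all genes. The smallest of the 4 differences was that of Ubxn4, at -0.011 ± 0.0072. Vcp, which encodes p97, the segregase that extracts ubiquitinated proteins, measured 883 and 892 in wildtype and 811 and 769.9 in HSL-null (-0.17 ± 0.038) and was the lowest. Ufd1, a cofactor of p97, was the highest at 0.092 ± 0.11 and overlapped. The list of ubiquitin and E1 genes gave no value, since 0 of its 6 genes had a probe set to itself.

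Peptide loading and interferon-response genes, among which the immunoproteasome is usually found, gave 3 higher, 4 lower and 9 overlapping of 16 above the filter (18.8% and 25%, beside 19.7% and 21.5% of all genes), with a median of 0.012 (-0.024 with median centring). The highest was the interferon-inducible GTPase gene Gbp2 (0.44 ± 0.053) and the lowest Cd74, the invariant chain of class II presentation (-0.32 ± 0.045). B2m, the light chain of class I molecules, was at 0.14 ± 0.049, and the peptide transporter gene Tap1 overlapped at 0.017 ± 0.16. Genes of this list lay on both sides of 0.

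Markers of other cells of the muscle were read beside these values. Among all genes above the filter, 19.7% were higher and 21.5% lower without overlap, and 13.4% and 28.4% with median centring. Of 14 macrophage markers 9 passed the filter, with 1 higher, 1 lower and 7 overlapping, and the summed level of all 14 was 846 and 853 in wildtype and 839 and 840.0 in HSL-null. Of 10 lymphocyte markers 9 lay below the filter, and Cd2, Cd3e and Cd8a lay under the floor on all arrays. The 10 together summed to 103.8 on each wildtype array and to 116 and 111 in HSL-null. Of 8 endothelial markers 1 was higher and 2 lower, with sums of 1002 and 1058 in wildtype and 984 and 982 in HSL-null. Of these 8 markers 7 lay below 0, with a median of -0.13. Of 5 adipocyte markers 4 passed the filter, of which 3 were lower and 1 overlapped, and the sums of all 5 were 538 and 531 in wildtype and 398 and 396 in HSL-null. Adipoq, the single adipocyte marker separated at 1.5-fold, measured 150.2 and 157.2 in wildtype and 73.5 and 74.1 in HSL-null (-1.06 ± 0.033). All 6 fibroblast markers were higher (5 of 6 with median centring or quantile normalization), with sums of 3483 and 3448 in wildtype and 3939 and 4072 in HSL-null. All 3 erythroid markers were higher (1 of 3 with median centring), with sums of 2464 and 2564 in wildtype and 2791 and 2675 in HSL-null, while both Schwann cell markers above the filter overlapped. These markers thus lay on both sides of wildtype, and their part in the proteasome values was not tested.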

How the data were processed

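Gene expression was measured on 4 arrays of soleus RNA, 2 technical duplicates of 1 pool of 5 mice for each genotype. The values are the linear intensities the authors deposited, 1 for each of 12488 probe sets and array, already scaled so that the mean of each array, without 2% of the values at each end, was 100. Neither the software nor the scaling step is given in the sources used here. All 4 columns were mapped to samples by title. The platform annotation named probe sets where it gives 1 symbol (10855, of which 10839 had their gene ID in a RefSeq table of GRCm38.p6, used for names). A probe set with 2 symbols, as for Psme2, stands for no gene.

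Intensities were raised to a floor of 5.7, the 25th percentile of the table, and taken as log2. Genes were kept where the mean over 4 arrays reached the median of such means over the table, which left 4851 named genes. A difference is the mean log2 of HSL-null minus that of wildtype, with the SE from duplicates. Arrays do not overlap where all 4 differences between single arrays have the same sign, and a gene counts as separated at 1.5-fold where the smallest of them reaches it. The duplicates share a pool, so that the spread is technical, and the number of arrays limits the precision. The number of each array is no sign of pairing, since the deviations of arrays with the same number correlated at -0.067 over named genes.

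Named with values are the catalytic and immunoproteasome subunits, the activators, each member whose arrays did not overlap, those below the filter and, of each further list, the highest and lowest gene. Further genes of these lists were named after their values were seen. The members and lists were chosen with earlier results of these data known. Promoters are the 250 bases before each RefSeq start. Alternatives were 4 other scalings (median centring, a common trimmed mean, and quantile or cyclic loess normalization with limma 3.58.1 in R 4.3.3), floors at the 10th and 50th percentile, no filter or one at the 75th percentile, the mean over a gene's probe sets, leaving out each array, a replicate block, and thresholds of 1.2-fold and 2-fold. Scripts ran in Python 3.11.15 with numpy 2.4.6, pandas 2.3.3 and matplotlib 3.10.9, and were tested on simulated data.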

Additional observations from a re-analysis of the deposited data

How the results depend on the processing

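Of the 16 members that were lower without overlap, 15 remained so under all 4 other scalings, the exception being Psmd8, and of the 6 that were higher, 4 did, the exceptions being Psma2 and Psma3. Of these scalings, the common trimmed mean hardly changes the values, since each array already had a trimmed mean of 100.08. The count of members separated at 1.5-fold was 0 under every alternative except the threshold of 1.2-fold, where it was 1. Leaving out each array in turn gave 8 to 14 members higher and 17 to 21 lower. With 2 differences left, non-overlap is met more often by construction, as in 33.4% to 35.1% of all genes higher and 35.8% to 36.9% lower. Median centring moved all medians down, since it lowered the median of all genes to -0.040. It gave -0.066 over all members, 0.014 for the alpha subunits, -0.012 for the immunoproteasome, -0.13 for the ATPases, -0.098 for the lid and 0.0095 for the activators. Quantile normalization gave 0.024 for the alpha subunits and 0.067 for the activators, and the cause was not tested. Without the filter the ATPases, with Psmc4 included, had a median of -0.14. Leaving out single arrays gave 0.020 to 0.068 for the alpha subunits and -0.020 to 0.11 for the activators, whose median is the value of Psme4 or of a neighbour. The difference between Psmb8 and Psmb5 was 0.085 with probe sets averaged, where the dimmer probe set of Psmb5 enters, and that between Psmb9 and Psmb6 -0.0033 with the floor at the 50th percentile. With the replicate block, 6 members were higher and 16 lower and no median changed, while the shares of all genes grew to 25.4% higher and 27.5% lower, since only 2 differences then need the same sign. Of 588 values of single genes under the alternatives, 557 moved by less than the spread of duplicates or not at all, and 31 by more. Leaving out an array cannot move a value by more than this spread. The filters and the replicate block leave each value unchanged, so these counts do not measure how robust the values are.

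With 1 pool per genotype, differences between animals cannot be told apart from differences between genotypes. Psmd2 and Psmc3ip lay at or near the floor, and Psmb9 and Psmc4 below the filter, so that depth of signal limits them. The further reading of a gene by another probe set is available above the filter for Psmb1, Psmb5, Psmc3 and Psmd11.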

Other observations

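Genes linked to muscle wasting were read from a list of 24 genes, of which 13 were named and all 13 passed the filter. The list includes FoxO factors as well as ubiquitin ligases and conjugating enzymes, which mark proteins for the proteasome. The listed genes Fbxo32, Trim63 and Foxo1 were not among the 13 and gave no value. On both HSL-null arrays 1 was higher and 5 were lower, and 7 overlapped, with a median of -0.026, beside 19.7% higher and 21.5% lower of all genes. Quantile normalization gave 2 higher and 4 lower, and loess 3 and 4. The conjugating enzyme gene Ube2b was the highest, with 1106 and 1053 in wildtype and 1162 and 1217 in HSL-null (0.14 ± 0.049, SE of duplicates). The ligase gene Traf6 was the lowest but overlapped, with 76.1 and 54.9 in wildtype and 43.9 and 60.1 in HSL-null (-0.33 ± 0.33). The ligase gene Nedd4 measured 722 and 734 in wildtype and 668 and 684 in HSL-null (-0.11 ± 0.022).

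Among factors that regulate proteasome genes, 8 of 12 named genes passed the filter, with 2 higher, 4 lower and 2 overlapping (1, 4 and 3 with median centring), beside 19.7% higher and 21.5% lower of all genes. Nfe2l1, whose product NRF1 drives proteasome genes, measured 1751 and 1828 in wildtype and 1670.0 and 1516 in HSL-null (-0.17 ± 0.076). Its relative Nfe2l2 was at -0.075 ± 0.013, and the partner genes Mafg and Mafk at -0.42 ± 0.21 and -0.19 ± 0.069, all lower on both arrays. Maff lay below the filter, with its HSL-null arrays higher. The NF-Y subunit gene Nfyc was the highest, with 278 and 293 in wildtype and 333 and 309 in HSL-null (0.17 ± 0.066), and Stat3 was higher too, at 0.095 ± 0.070. Nfyb and Irf1 overlapped, at 0.032 ± 0.071 and -0.040 ± 0.24. The genes other than the highest and lowest of each list were named after their values were seen.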
